A study of Pongo abelii with 6 samples.

Results

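The genes described here are the long noncoding RNA (lncRNA) genes expressed in orangutan induced pluripotent stem cells. RefSeq transcripts of the deposited table were paired with a RefSeq gene table, TPM values (a length-corrected share of a library's transcripts) were summed per gene, and members were chosen by these levels: genes of the lncRNA class with at least 1 TPM in at least 3 of the 6 libraries. This gave 101 genes, out of 726 lncRNA genes paired with a transcript, 6255 genes of all classes that passed the same filter and 15205 genes with a symbol. Levels are therefore described and not tested.

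Total RNA depleted of ribosomal RNA was sequenced from stem cell lines of 2 Sumatran orangutans (Pongo abelii), 3 libraries of Djasinga and 3 of Dokana. All libraries share the medium iPS-Brew with 1 µM IWR1, an inhibitor of Wnt signalling, and 0.5 µM CHIR, an inhibitor of GSK3, and a Matrigel coating, and no other treatment separates the lines. The 3 libraries of a line come from sequential passages, numbered as biological replicates in the titles and called technical ones in the design text. Every library of both lines carries the same entry of 3 passages, which does not tell the sequential passages apart. Each line is 1 line of 1 animal, so p-values measure the spread between passages, not between animals. The labels also carry the words "differentiated" and "small RNA" for these libraries, while their titles name total RNA of iPSC; matched small RNA libraries are not analysed here.

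A lncRNA is a long transcript with no recognised protein-coding sequence. Some act in the nucleus on chromatin or on splicing bodies, some are made from the opposite strand or the promoter of a protein-coding gene, and some serve mainly as carriers of small RNAs. Small nucleolar RNAs (snoRNAs), which guide chemical modification of ribosomal RNA, are cut out of the introns of such carrier transcripts in vertebrates, while the spliced exons are often short-lived. In human pluripotent cells, some lncRNAs start in endogenous retroviruses.

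The table keeps no read depth, so depth is unknown and no counting error can be given. RefSeq transcripts with a symbol held 11.9% to 17.6% of a library's TPM, unnamed StringTie assemblies held 71.7% to 81.2%, and the most abundant assembly alone held 16.9% to 42.4%. That transcript was highest in Djasinga replicate 3, and TPM has a fixed total per library. The median gene of all 6255 tested was at a log2 difference of -0.29 between the lines (Djasinga minus Dokana), and median-ratio scaling moved it by 0.27. As a check of the cell type, all 9 pluripotency genes with a paired transcript, of 13 listed, were above 1 TPM, NANOG and SOX2 among them. Their sum was 304 to 388 TPM in Djasinga and 417 to 526 TPM in Dokana, of which CD24 alone averaged 132 and 152 TPM. Of 20 listed markers of other lineages, 18 had a paired transcript. Only COL1A2, a fibroblast collagen, and SOX1, a neural factor, averaged at least 1 TPM. The list's sum was 3.79 to 8.88 TPM in Djasinga and 5.61 to 6.59 TPM in Dokana. POU5F1, LIN28A, DPPA4 and TDGF1 had no paired transcript and were not analysed here.

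Almost none of the expressed lncRNAs has a name. All 115 of their transcript rows have the accession prefix of noncoding transcripts, and 100 of the 101 genes carry a LOC number with no assigned role. The exception is SMCO4, which the RefSeq table classes as a lncRNA although in human the name belongs to a membrane protein with a coiled coil. SMCO4 had 7.62, 3.91 and 5.10 TPM in Djasinga against 5.98, 7.06 and 6.95 TPM in Dokana, in the order of replicates 1, 2 and 3. The lines overlapped in it.

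Well-known lncRNAs could not be followed by name. Of 33 snoRNA-carrier, 26 microRNA-host, 10 widely expressed, 16 imprinted, 5 X-inactivation and 14 pluripotency-associated lncRNA symbols known from human, MEG3 was the only one paired with a transcript. MEG3, a maternally expressed imprinted lncRNA, had 0.360, 0.0343 and 0.0951 TPM in Djasinga against 0.0964, 0.0463 and 0.0567 TPM in Dokana, under the filter. The others were not analysed here by name.

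Most expressed lncRNAs were scarce. The mean over the 6 libraries was under 2 TPM in 54 genes, 2 to 5 TPM in 33, 5 to 10 TPM in 8 and at least 10 TPM in 6, with a median of 1.78 TPM against 4.80 TPM for the 5089 protein-coding genes that passed the same filter. Of the 726 lncRNA genes paired, 13.9% passed, against 42.7% of the 11922 protein-coding genes, and 188 were listed at 0 in every library. All 6 libraries reached 1 TPM in 48 lncRNAs (47.5%), against 81.9% of the protein-coding genes. Just inside the filter were LOC112130716, LOC100438170, LOC100937383 and LOC112132325, where the lowest of the top 3 libraries had 1.00 to 1.06 TPM. Just outside were LOC100940126, LOC112136061, LOC112129049 and LOC103891536, where it had 0.951 to 0.993 TPM.

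**Figure D1:**
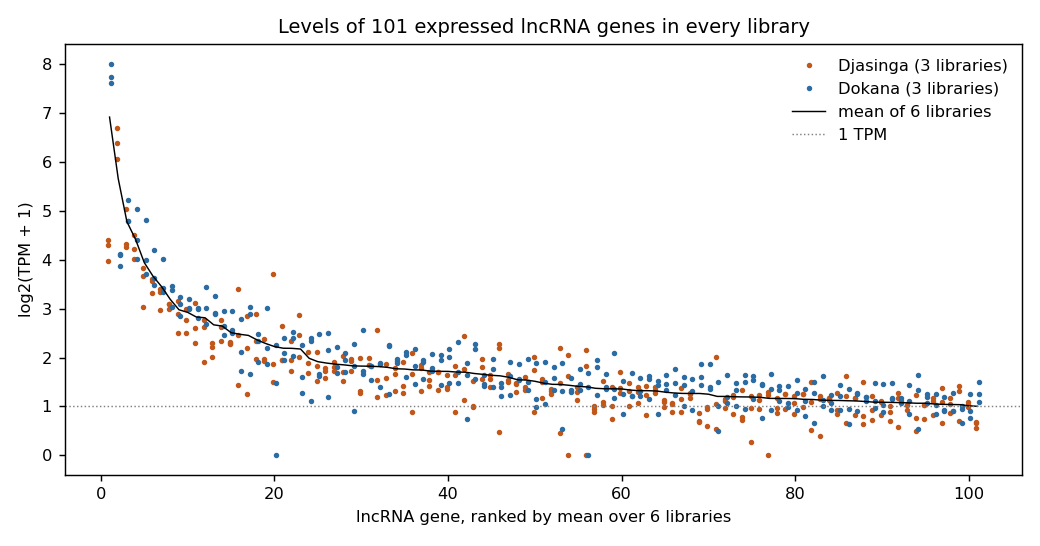
Level of each of the 101 lncRNA genes (x axis, ranked by mean) in each library, as log2(TPM + 1) on the y axis; orange points are the 3 Djasinga and blue points the 3 Dokana libraries, and the line is the mean. The lines stand far apart at ranks 1 and 2, and most genes lie near the dotted line at 1 TPM.

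The most abundant lncRNA was LOC100455393, with a mean of 120 TPM over the libraries, above 97.6% of all genes tested. LOC100936956 followed with 49.6 TPM. These were also the genes that differed between the lines, and their values are given further on.

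Of the next 8 genes by level, none passed the test between the lines (limma adjusted p 0.366 to 0.625). LOC112133164 had 31.8, 18.2 and 19.1 TPM in Djasinga against 26.8, 26.8 and 36.2 TPM in Dokana. Its nearest protein-coding genes in the RefSeq order, ADGRL3, an adhesion receptor, and IGFBP7, a secreted growth factor binder, were both under the filter, at means of at most 0.346 TPM. LOC112133082 had 15.2, 17.8 and 21.7 TPM in Djasinga against 20.1, 15.2 and 32.1 TPM in Dokana. It overlaps CPEB2, a regulator of translation, which reached 0.368 TPM at most. The lines overlapped in both lncRNAs.

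LOC112132096 had 13.3, 7.15 and 11.8 TPM in Djasinga against 12.0, 14.96 and 27.1 TPM in Dokana. Its nearest protein-coding genes are MERTK, a receptor tyrosine kinase at 3.32 ± 0.195 TPM in Djasinga and 5.34 ± 0.876 TPM in Dokana (SD, n = 3 each), and TMEM87B, a membrane protein with no paired transcript. LOC112132085 had 9.01, 11.2 and 10.8 TPM in Djasinga against 10.3, 11.4 and 17.5 TPM in Dokana. It overlaps the protein-coding gene TXNDC9, which has no paired transcript. The neighbour EIF5B, a factor that joins ribosomal subunits, was at 12.5 ± 2.72 TPM in Djasinga and 17.1 ± 4.81 TPM in Dokana (SD, n = 3 each). LOC112132360 had 9.08, 9.55 and 6.87 TPM in Djasinga against 9.70, 9.08 and 15.3 TPM in Dokana, and it overlaps LRP1B, a lipoprotein receptor gene listed at no more than 0.0415 TPM. The lines overlapped in all 3 lncRNAs.

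The last 3 of the top 10 each overlap a protein-coding gene. LOC103892947, which overlaps the synaptic scaffold gene DLGAP1, had 7.60, 6.92 and 7.49 TPM in Djasinga against 7.24, 9.43 and 10.01 TPM in Dokana. LOC112133794, across the ubiquitin ligase gene TRIM39, had 6.45, 4.63 and 7.93 TPM in Djasinga against 6.16, 7.57 and 8.50 TPM in Dokana. LOC112129627, across the GTPase regulator gene ARHGAP23, had 6.92, 5.79 and 4.65 TPM in Djasinga against 6.93, 7.10 and 8.15 TPM in Dokana. The lines did not overlap in LOC112129627, whose nearest values are 6.92 and 6.93 TPM, and overlapped in the other two.

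Between the lines, 2 of the 101 lncRNAs differed, 1 in each direction (limma on log2(TPM + 1), adjusted p under 0.05 over all 6255 genes). This is 1.98% of the lncRNAs, against 0.352% of all genes tested. LOC100455393 fell and LOC100936956 rose in Djasinga. In bulk RNA, fewer cells with a transcript and less of it per cell cannot be told apart. The other 99 did not pass, with a smallest adjusted p of 0.197.

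LOC100455393 had 18.7, 14.8 and 20.3 TPM in Djasinga against 214, 195 and 258 TPM in Dokana. The lines did not overlap, and the ratio of the means, Dokana over Djasinga, was 12.4. The log2 difference was -3.56 (SE 0.19), or -3.27 relative to the median gene, with a limma adjusted p of 0.000627. The call ended only where the replicate block and median-ratio scaling were combined (log2 difference -3.23, limma adjusted p 0.0617), an alternative chosen after seeing the data, and where the accession version had to match, since its row then has no gene. The gene has 1 transcript row in the table, while the RefSeq gene table lists 2 accessions for it. RefSeq rows without a match and StringTie assemblies enter no gene sum. Any RNA of this locus assigned to them is not counted, so the difference is that of the paired row.

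LOC100936956 had 103, 65.9 and 82.4 TPM in Djasinga against 13.6, 16.2 and 16.3 TPM in Dokana. Here too the lines did not overlap, and the ratio of the means, Djasinga over Dokana, was 5.44. The log2 difference was 2.35 (SE 0.21), or 2.65 relative to the median gene, with a limma adjusted p of 0.00811. With the replicate number as a block it missed the threshold (limma adjusted p 0.0891), as it did without Djasinga replicate 3 (0.0504) and without Dokana replicate 3 (0.0610), at nearly the same size of difference. It also missed with the block and median-ratio scaling combined, chosen after seeing the data (log2 difference 2.68, limma adjusted p 0.162). Where the accession version had to match, its rows have no gene.

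**Figure D2:**
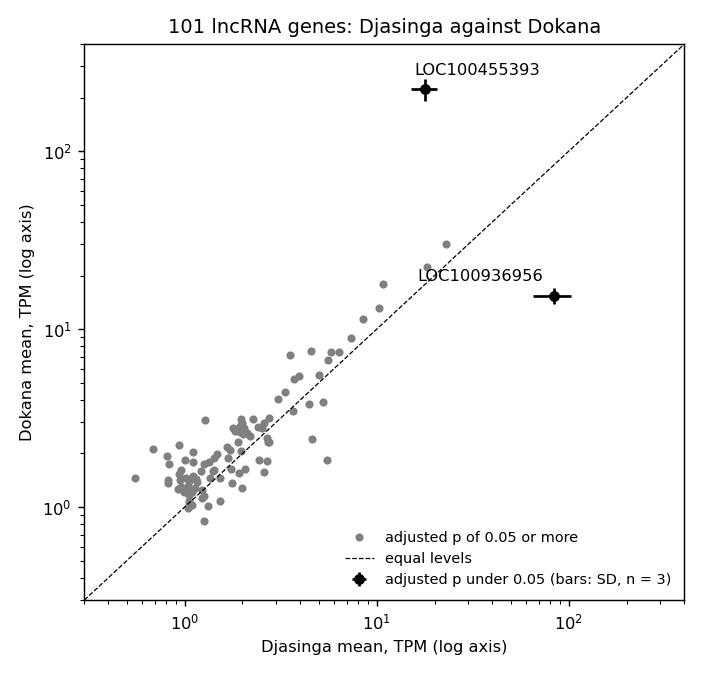
Mean level in Djasinga (x axis) against mean level in Dokana (y axis) for the 101 lncRNA genes, in TPM on log axes, with the line of equal levels dashed. LOC100455393 (17.9 TPM in Djasinga, 223 TPM in Dokana) and LOC100936956 (83.8 TPM in Djasinga, 15.4 TPM in Dokana) lie far from it, and bars on these give the SD of 3 libraries.

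Of the transcript rows of LOC100936956, 2 rose in Djasinga. The gene has 4 rows in the table and 20 accessions in the RefSeq gene table. RNA of this locus assigned to unmatched rows or StringTie assemblies is likewise not in its sum. XR_654961.2 was at 47.6, 31.8 and 21.8 TPM in Djasinga and listed at 0 in all 3 Dokana libraries (limma adjusted p over all transcript rows 0.000223). XR_654963.2 had 34.9, 15.6 and 26.8 TPM in Djasinga against 1.68e-09, 0.0412 and 1.23 TPM in Dokana (limma adjusted p 0.00251). The lines did not overlap in either row. XR_654961.2 met the row filter through Djasinga alone and XR_654963.2 through Djasinga and 1 Dokana library, so the filter favoured a difference in both; with no filter XR_654963.2 missed the threshold (limma adjusted p 0.0544).

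The other rows of the gene did not pass. XR_654962.2 had 5.47, 6.22 and 17.0 TPM in Djasinga against 4.58, 13.7 and 15.1 TPM in Dokana, with a log2 difference of -0.22 and a limma adjusted p of 0.816. XR_002914377.1 had 15.03, 12.3 and 16.9 TPM in Djasinga against 9.04, 2.47 and 2.09e-05 TPM in Dokana (limma adjusted p 0.234). By line means the most used row differed. XR_654961.2 and XR_654963.2 made up 40.3% and 30.7% of the gene's mean TPM in Djasinga and 0% and 2.75% in Dokana, where XR_654962.2 made up 72.3%; in Dokana replicate 1 alone the leading row was XR_002914377.1, at 66.4% of the gene. Rows of 1 gene share exons, so how reads were split among them is the authors' estimate.

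**Figure D3:**
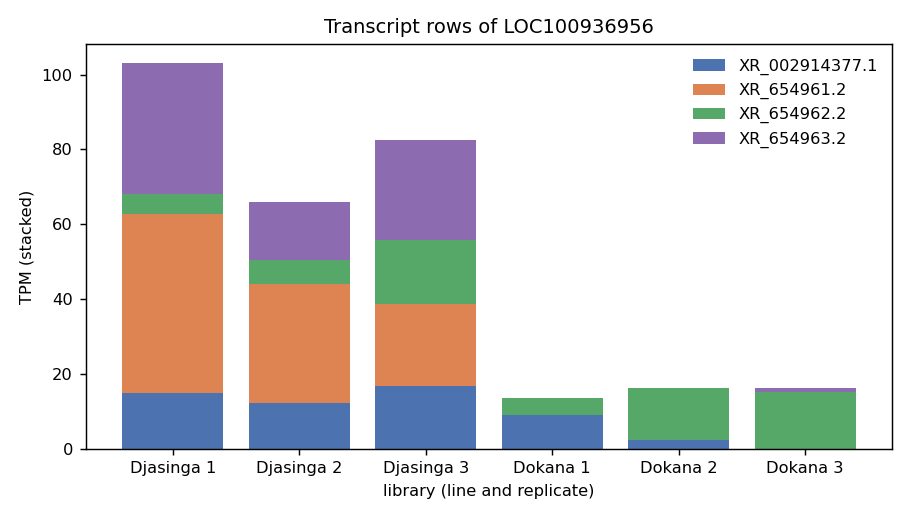
TPM of the 4 transcript rows of LOC100936956, stacked, in each Djasinga and Dokana library. The orange row (XR_654961.2) has 21.8 to 47.6 TPM in Djasinga and is listed at 0 in Dokana, while the green row (XR_654962.2) is present in all 6 libraries.

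Across the lncRNAs, 3 of 107 tested transcript rows passed, 2 higher and 1 lower in Djasinga, and they are rows of the 2 called genes. Of all 22561 rows 1.03% passed (0.288% higher and 0.74% lower). The filter favoured a difference in the 2 higher rows, so the count cannot be weighed against that share. With no filter, 2 of 557 lncRNA rows passed, 1 higher and 1 lower. Few lncRNAs could show a shift between rows: 92 of 101 have 1 row, 6 have 2, 1 has 3 and 2 have 4. For 42 genes the RefSeq table lists more accessions than the file has rows. LOC103892572, the other gene with 4 rows, kept the same main row in both lines, at 44.6% of its TPM in Djasinga and 55.5% in Dokana. In LOC100940307 the row XR_002914404.1 held 0%, 29.4% and 71.9% of the gene in Djasinga and 0%, 15.1% and 0% in Dokana, so it varied widely within Djasinga.

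Both lncRNAs that differed overlap snoRNA genes. In the RefSeq table LOC100936956 overlaps 10 snoRNA genes, and its nearest gene on one side is ZBTB37, a zinc finger gene. LOC100455393 overlaps 2 snoRNA genes, and its nearest protein-coding gene on one side is SYNCRIP, an RNA-binding protein. Only 6 of the 101 expressed lncRNAs (5.94%) overlap a snoRNA gene, as do 6 of the 625 lncRNA genes under the filter (0.960%). The remaining 4, LOC112135741, LOC100940307, LOC112132325 and LOC100937460, averaged 2.54, 1.52, 1.30 and 1.07 TPM over the libraries, and none of them passed.

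The snoRNA genes in these loci did not pass the test. Of the 11 tested 0 were called (limma), 1 had an unadjusted p under 0.05, and 0.943% of all 530 snoRNA genes tested passed. In LOC100455393, LOC112134046 had 116, 75.2 and 167 TPM in Djasinga against 58.1, 59.9 and 156 TPM in Dokana (log2 difference 0.47, SE 0.45, limma adjusted p 0.546). LOC112134045 had 41.6, 31.2 and 75.6 TPM in Djasinga against 29.7, 44.2 and 68.4 TPM in Dokana (log2 difference 0.04, limma adjusted p 0.949). The lines overlapped in both snoRNAs.

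In LOC100936956, 9 of 10 snoRNA genes were tested and 1 was listed at 0 throughout. Of these, 2 had a positive and 7 a negative log2 difference, with a median of -0.38 against -0.29 for all genes tested; LOC112131301 and LOC112131361, among the 7, turned positive with median-ratio scaling. LOC112131365, the snoRNA with the highest log2 difference, had 374, 358 and 391 TPM in Djasinga against 171, 179 and 238 TPM in Dokana. Its lines did not overlap, its log2 difference was 0.94 (SE 0.18, limma adjusted p 0.159), and it passed after median-ratio scaling (log2 difference 1.28, limma adjusted p 0.0166). LOC112131431, the snoRNA with the lowest log2 difference, had 196, 95.0 and 186 TPM in Djasinga against 218, 225 and 341 TPM in Dokana (log2 difference -0.75, limma adjusted p 0.336). LOC112131361, the most abundant of the rest, had 264, 186 and 210 TPM in Djasinga against 226, 162 and 346 TPM in Dokana, so its lines overlapped.

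**Figure D4:**
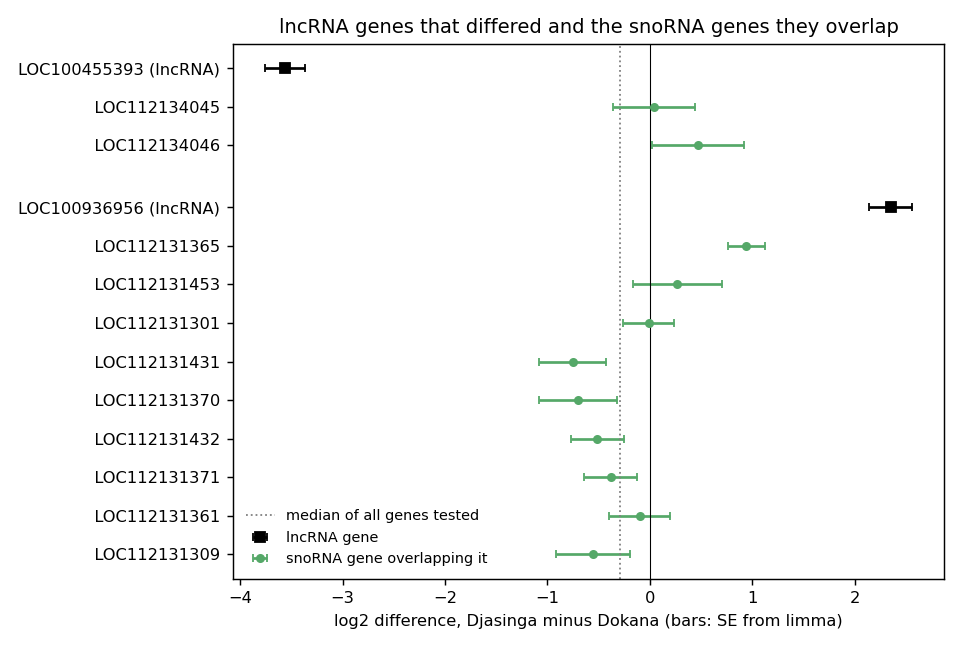
Log2 difference between the lines (x axis, Djasinga minus Dokana; bars are the SE from limma) of LOC100455393 and LOC100936956 (black squares) and of the 11 tested snoRNA genes that overlap them (green points). The lncRNAs lie at -3.56 and 2.35, and the snoRNAs between -0.75 and 0.94; the dotted line is the median gene at -0.29.

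Set as a ratio within each library, summed snoRNA TPM over lncRNA TPM was 8.46, 7.17 and 12.0 in Djasinga and 0.410, 0.533 and 0.871 in Dokana for LOC100455393. For LOC100936956 the ratio was 14.9, 18.9 and 18.1 in Djasinga and 102, 74.5 and 128 in Dokana. Each ratio separated the lines without overlap (two-sided exact permutation test on the log2 ratio, p 0.1 for either gene, the smallest that 3 against 3 libraries allow). The ratios were set up with the lncRNA differences known, so they hold no independent evidence of those. SnoRNA genes can have near-identical copies, and reads of overlapping genes can be assigned to either, so values of single genes are uncertain.

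Counting both called genes, the lines did not overlap in 16 lncRNAs that were lower and 2 that were higher in Djasinga (15.8% and 1.98% of 101), against 24.5% and 1.18% of all genes tested. After median-ratio scaling there were 8 lower and 7 higher, against 7.8% and 5.36% of all genes. The lncRNAs lay below the share of all genes in the lower direction before scaling and near it otherwise, and the split between directions changed with the scaling. Of the 101, 9 had an unadjusted p under 0.05 (8.91%), against 14.8% of all genes tested.

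Among the separated lncRNAs that did not pass, LOC100939744 had 0.634, 0.813 and 0.605 TPM in Djasinga against 1.70, 2.02 and 2.63 TPM in Dokana (log2 difference -0.88, SE 0.19, limma adjusted p 0.197). LOC112132356 had 3.65, 3.05 and 3.89 TPM in Djasinga against 6.47, 8.54 and 6.55 TPM in Dokana (log2 difference -0.85, SE 0.19, limma adjusted p 0.218). LOC103892532, across the nuclear receptor gene RORA, had 0.997, 1.86 and 0.973 TPM in Djasinga against 3.53, 1.96 and 3.81 TPM in Dokana (log2 difference -0.84, limma adjusted p 0.315). LOC100939744 met the filter only through its Dokana libraries, so its difference is a description. LOC112132356 and LOC103892532 lay lower in Djasinga by more than the median gene, without passing.

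The remaining genes of the 10 with the largest differences among separated lncRNAs were LOC112132698, LOC100936134, LOC112130131, LOC112130758 and LOC103892649, at log2 differences of -0.71, -0.69, -0.65, -0.48 and -0.40 (limma adjusted p 0.283 to 0.343). Of the 10, 8 stayed apart after median-ratio scaling, and LOC103892532 and LOC103892649 then overlapped. LOC100939744, LOC100936134, LOC112130131 and LOC103892649 reached 1 TPM in all 3 Dokana libraries and in no Djasinga library, so they passed the filter only through Dokana and had to differ; their differences support nothing. Of the 101, these 4 passed in this way, and 0 passed through Djasinga alone.

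**Figure D5:**
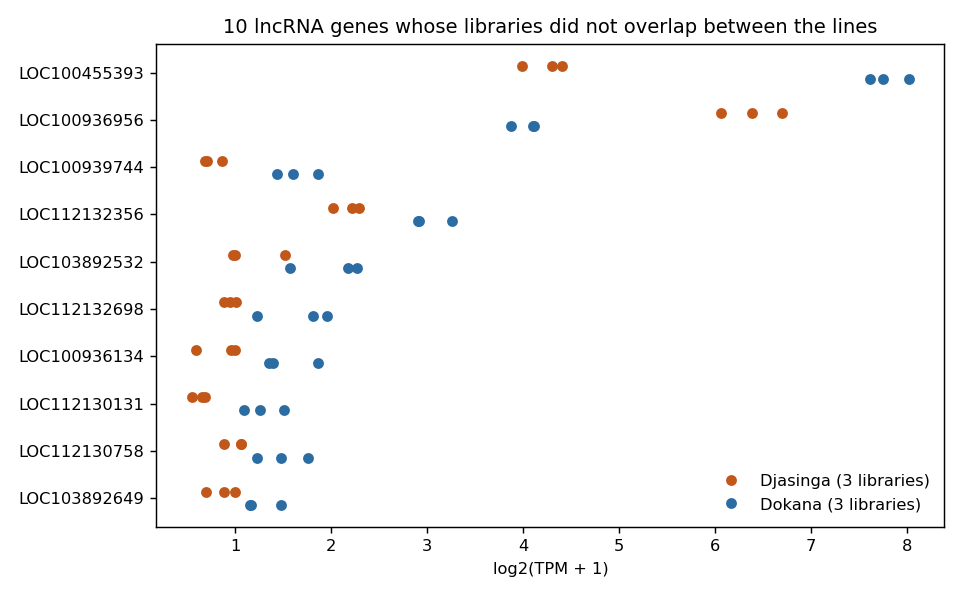
Levels, as log2(TPM + 1), of the 10 lncRNA genes with the largest difference among those whose libraries did not overlap; orange points are the 3 Djasinga and blue points the 3 Dokana libraries. LOC100936956 is the one gene of the 10 higher in Djasinga, and 7 of the 8 that did not pass lie under 4 TPM in every library.

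The size of the differences was mostly small. The ratio of the line means stayed within 1.5 in 75 of 101 lncRNAs and reached 2 in 10, of which 2 were higher and 8 lower in Djasinga. The median log2 difference was -0.21, with 76 of 101 below 0, against -0.29 and 86.0% below 0 for all genes tested. After median-ratio scaling the median was 0.02 and 45 of 101 lay below 0. All paired lncRNA genes together held 0.352%, 0.336% and 0.369% of the named TPM in Djasinga and 0.355%, 0.374% and 0.447% in Dokana, which overlapped (two-sided exact permutation test, p 0.2, smallest possible 0.1). With snRNA and snoRNA genes left out of the total, the shares were 0.641%, 0.616% and 0.640% in Djasinga and 0.672%, 0.706% and 0.747% in Dokana, which did not overlap (two-sided exact permutation test, p 0.1, the smallest possible). Without LOC100455393, the gene known to be high in Dokana, they were 0.339%, 0.324% and 0.352% in Djasinga and 0.233%, 0.244% and 0.301% in Dokana, a turn that leaving out this gene alone favours. Without both called genes they were 0.265%, 0.271% and 0.283% in Djasinga and 0.225%, 0.234% and 0.292% in Dokana, which overlapped (two-sided exact permutation test, p 0.4).

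Single libraries stood out in many genes. Dokana replicate 3 had the highest of the 6 values in 58 of 101 lncRNAs (57.4%) and in 61.9% of all genes tested, and in 13 lncRNAs after median-ratio scaling. After that scaling the lead lay with Djasinga replicate 3, highest in 31 lncRNAs against 6 before. The lncRNAs varied between libraries of a line by a median CV of 25.1% in Djasinga and 29.7% in Dokana, against 20.8% and 19.4% for protein-coding genes. Among genes of 1.12 to 6.10 TPM, the range of the middle 81 lncRNAs, the CV was 26.6% in Djasinga and 31.3% in Dokana, against 24.4% and 20.3% for 2640 protein-coding genes. Levels within that range were not matched, so the classes were not compared at equal level.

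A CV above 50% in a line was found in 26 of 101 lncRNAs. Those listed at 0 in a library were 3: LOC112130342, LOC112131005 and LOC103889958, the last described further on. LOC112130342 had 12.0, 1.84 and 2.65 TPM in Djasinga against 3.75, 1.79 and 0 TPM in Dokana. LOC112131005 had 3.17, 2.06 and 0 TPM in Djasinga against 1.51, 1.44 and 1.99 TPM in Dokana. LOC112133116, lowest in replicate 3 of both lines, had 3.58, 1.78 and 0.362 TPM in Djasinga against 1.47, 2.72 and 0.446 TPM in Dokana. These genes overlapped between the lines.

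Many expressed lncRNAs lie across a protein-coding gene. By the RefSeq order 47 of 101 (46.5%) overlap at least 1, against 19.04% of the lncRNA genes under the filter. Of their 55 protein-coding partners 37 had a paired transcript, and 17 passed the filter with a median of 6.10 TPM. In 14 of these 17 pairs the partner was more abundant than the lncRNA, which the filter on the partner favours. The 20 paired partners under the filter were each less abundant than their lncRNA, and 3 of them were listed at 0 in all 6 libraries. That order follows almost wholly from the filter, which the lncRNAs met and these partners did not. The kit keeps strand per the labels, but whether strand was used in counting is not given, so RNA of a lncRNA and of a gene it overlaps cannot be told apart with certainty.

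None of the 17 partners passed (limma, smallest adjusted p 0.236, 5 at an unadjusted p under 0.05); of all protein-coding genes tested 0.0983% passed and 14.8% had an unadjusted p under 0.05. Their median log2 difference was -0.36, and 16 of 17 were below 0, against 90.3% of all protein-coding genes tested. MAX, the binding partner of MYC, had 2.57, 2.23 and 1.97 TPM in Djasinga against 4.37, 4.16 and 5.74 TPM in Dokana, while LOC112128770 across it had 0.754, 0.566 and 1.82 TPM in Djasinga against 1.15, 1.27 and 1.30 TPM in Dokana. MAX was lower in every Djasinga library and the lncRNA was not. The same held for ATXN3, C19H17orf49, CAMKMT, SLC36A4 and WARS2 and the lncRNAs across them. LAS1L had 11.5, 12.0 and 11.9 TPM in Djasinga against 15.3, 13.2 and 18.2 TPM in Dokana. LOC112130758 across LAS1L had 0.849, 1.08 and 1.09 TPM in Djasinga against 1.77, 1.33 and 2.39 TPM in Dokana. Both genes of this pair were lower in Djasinga without overlap, and neither passed. MKLN1, a component of the CTLH complex, had 6.72, 6.42 and 5.31 TPM in Djasinga against 9.80, 7.18 and 11.9 TPM in Dokana. It was lower in Djasinga without overlap, as were 24.5% of all genes tested. LOC100939744 across it met the filter only through Dokana and had to lie lower in Djasinga, so no shared change can be read from this pair. SLC36A4, an amino acid transporter across SMCO4, had 19.7, 18.5 and 13.6 TPM in Djasinga against 26.9, 20.3 and 30.4 TPM in Dokana. PDK1, a kinase that restrains pyruvate dehydrogenase, had 10.2, 22.5 and 14.5 TPM in Djasinga against 33.9, 14.2 and 36.8 TPM in Dokana, and LOC103889981 across it had 4.05, 5.12 and 5.82 TPM in Djasinga against 5.21, 4.52 and 6.74 TPM in Dokana.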

How the data were processed

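RNA-seq of 6 libraries was used, grouped by the line named in the titles. The deposited values are TPM per transcript row, per the file headers (58409 rows). Per the submitters' processing notes, the tools were StringTie, STAR, FastQC 0.11.9 and Trimmomatic 0.39; the quantifier, genome build and annotation release were not given in the sources used here. The HERV flags of the table were not used.

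Accessions were matched without version to the RefSeq table of NHGRI_mPonAbe1-v2.0, used only for names, classes and gene order: 22113 of 43705 RefSeq rows matched (50.6%), 3321 with the version too. Members' rows matched with the version in 4 of 115 cases. TPM was summed per gene. Genes or rows that reached 1 TPM in 3 or more libraries were fitted with limma-trend on log2(TPM + 1), which understates changes of low genes, without a block, and adjusted by Benjamini-Hochberg over all of them (threshold 0.05). Of these steps, only the limma fit was tested on simulated data, with values made for the genes past the filter. Changes were set only in genes above a level that most of the lncRNAs do not reach, so that test does not cover most of them. SDs are over 3 libraries.

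The reported tests are unpaired; because same-numbered libraries of the lines share a batch entry in their labels, a fit with that number as a block was run as an alternative. Deviations of same-numbered libraries correlated by -0.0930, -0.130 and 0.152 over 6255 genes.

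Genes named are those past the threshold, the 10 highest, those without a LOC number, the 10 largest differences among genes whose libraries do not overlap, those with 4 or more rows, 4 on either side of the filter, and neighbours or overlapping genes of the first; others were chosen after their values were seen. Members, lists and tests were chosen with earlier results of these data known. Alternatives covered the block, each library left out, scaling, pseudocount, filter, trend, quantile normalization, version match, the lncRNA share without snRNA and snoRNA genes or without the most abundant lncRNA and, chosen after seeing the data, the block with scaling, leaving out the most abundant row, and leaving out both called genes from the lncRNA share. Tools were limma 3.58.1 in R 4.3.3, and Python 3.11.15 (numpy 2.4.6, pandas 2.3.3; figures by matplotlib 3.10.9).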

Additional observations from a re-analysis of the deposited data

How the results depend on the processing

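The count of 2 lncRNAs was 1 with the replicate block, 0 with the block and median-ratio scaling, 0 of 4 tested where the version had to match, and 1 to 2 without single libraries (1 without Djasinga replicate 3 or Dokana replicate 3). It was 2 in the other alternatives run, and LOC100455393 and LOC100936956 kept their direction in all that could be fitted. The cause was not tested. All named genes called were 22, against 5 with the block, 1 with the block and median-ratio scaling, 10 at a pseudocount of 0.1, 14 at 1 TPM in at least 1 library, 0 where the version had to match, and 7 to 23 without single libraries. The lncRNA share of named TPM differed by -0.0394 percentage points (Djasinga minus Dokana), by 0.00381 where the version had to match, 0.0790 without LOC100455393, 0.0227 without both called genes and -0.0759 without snRNA and snoRNA genes in the total. For uncalled snoRNAs the log2 difference changed sign without single libraries in LOC112134045 (-0.31 to 0.34), LOC112131453 (-0.25 to 0.56), LOC112131301 (-0.23 to 0.21) and LOC112131361 (-0.36 to 0.19). For LOC112131301 and LOC112131361 it also did so with median-ratio scaling, alone or with the block (0.33 and 0.24), quantile normalization (0.35 and 0.11) and without the most abundant row (0.27 and 0.18). XR_654963.2 missed the threshold with no filter (limma adjusted p 0.0544). TPM limits what can be said near 1 TPM, where most lncRNAs lie.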

Other observations

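LOC103889958 was listed at 0 in replicate 1 of both lines. In replicates 2 and 3 it had 3.42 and 2.54 TPM in Djasinga, against 1.64 and 2.22 TPM in Dokana. It was picked after its values were seen, and its lines overlapped. LOC112132325 had 0.444, 3.05 and 1.06 TPM in Djasinga against 0.418, 1.01 and 1.83 TPM in Dokana. The snoRNA gene that overlaps it, LOC112132467, had 0, 7.57 and 0 TPM in Djasinga against 1.25, 1.18 and 0 TPM in Dokana, so both were highest in Djasinga replicate 2.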
